A study of Mus musculus with 4 samples.

Results

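Cultured mouse erythroblasts were compared before and after 6 h in maturation medium, in control cells only. The comparison comprised the rows of the deposited table that set the proliferating control library against the control library collected after 6 h in maturation medium. These were 23234 of the table's 65535 rows, 1 for each gene entry, and 2 of the 4 libraries that the labels describe. The cells were extensively self-renewing erythroblasts (ESREs), red cell precursors grown from the early mouse fetus that stay immature in culture. Both libraries came from cells that carried a non-targeting short hairpin RNA, so Setd8, the histone methyltransferase that the study knocked down, was not targeted in either. The labels do not say how many cultures went into a library or whether cells were pooled, and the composition of the maturation medium is not given in the sources used here. Maturing cells with the Setd8 hairpin were not analysed here. With 1 library a side there is no spread between replicates, and calls are those that the authors' model made on this pair.

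Erythroblasts divide a few more times while they mature, fill with haemoglobin, shrink and at last expel the nucleus. Self-renewing cultures of such cells are generally held in the immature state by erythropoietin, stem cell factor and a glucocorticoid, which act through the receptors Epor and Kit and the glucocorticoid receptor. Maturation raises the genes of haem synthesis, globins and the red cell membrane under Gata1 and Klf1, and turns down genes of the progenitor state such as Gata2, Myb and Kit. The defining erythroblast markers were present in both libraries. Gata1 was at 52.8 FPKM in the proliferating and 65.5 FPKM in the maturing control, Klf1 at 60.1 and 84.9 FPKM, and their partner Tal1 at 40.3 and 51.9 FPKM. FPKM is fragments per kilobase of transcript with library size taken into account, so levels can be compared between genes. Setd8 itself (mm9, chr5:124889938-124912316) was at 25.1 and 25.9 FPKM, with no call in the authors' deposited table.

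Most genes kept close values over the 6 h. A gene counted as measured if either library held it at 1 FPKM or above. Of 9191 such genes, 8713 were measured in both, 210 only in the proliferating and 268 only in the maturing control. The median log2 ratio of FPKM + 1, maturing over proliferating, was 0.02, and the middle 90% of genes lay between -0.49 and 0.48. The authors' deposited table called 198 of the 11298 tested genes, or 1.75%, at a q-value of 0.05 or less, 66 higher (0.584%) and 132 lower (1.17%). Of these calls, 92 were of genes below 1 FPKM in both libraries, among them 6 olfactory receptor genes and 7 Mrgpra receptor genes, all called lower. Over measured genes the authors' deposited table called 33 higher, or 0.359%, and 73 lower, or 0.794%. By size alone, 50 measured genes (0.544%) reached a log2 ratio of 1 and 110 (1.2%) one of -1. Of the genes past either size, 78 were not called, and 35 of those were microRNA or small nucleolar RNA entries, which are very short transcripts. Among genes at 5 FPKM or more in a library, the smallest change that was called was 1.03 in size on the log2 scale. The median standard error of the authors' model was 0.45 on the log2 scale where both libraries held a gene at 5 FPKM or above.

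**Figure D1:**
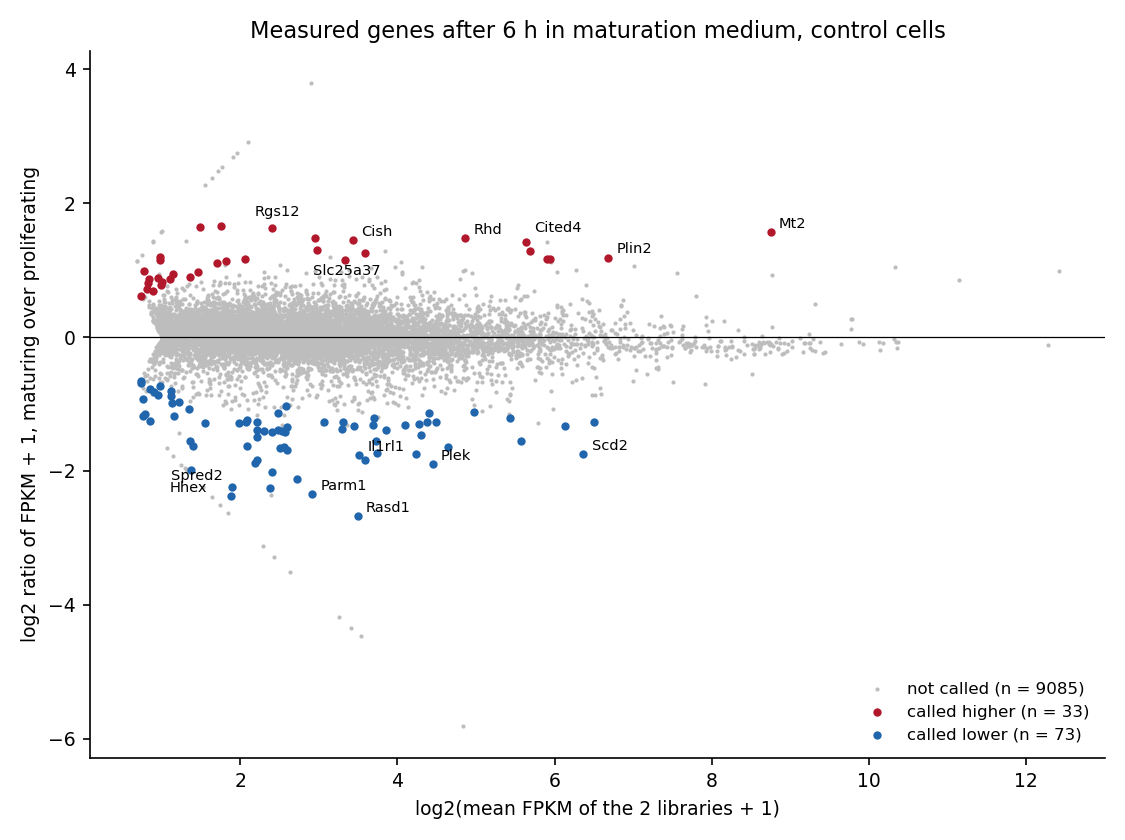
Each point is 1 of 9191 measured genes. The horizontal axis is log2 of the mean FPKM of both libraries plus 1, and the vertical axis is the log2 ratio of FPKM + 1, maturing over proliferating control. Red points are the 33 genes that the authors' deposited table called higher and blue points the 73 it called lower. The called genes lie outside a dense grey band around 0, and the grey points farthest from 0 are nearly all microRNA and small nucleolar RNA entries (19 of the 20 uncalled genes of size 2 or more).

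The proliferating control library was the shallower of the pair. What 1 fragment was worth among very low genes gave the maturing library 1.55 times its depth, and the absolute depth is unknown. The ribosomal RNA precursor Rn45s stood at 94.98 and 133 FPKM, and the nuclear RNA Malat1 at 6.45 and 8.34 FPKM. Depth and these RNAs differ together with the medium, and their part in the results was not tested. The libraries hold RNA of whole cultures, so fewer cells of a type and less RNA per cell cannot be told apart in any value below. Effects of the medium on the cells and maturation as such cannot be told apart either.

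Enzymes of cholesterol and unsaturated fatty acid synthesis held more measured genes called lower, by number, than any other list examined. The share was larger in the growth factor and MAPK list, at 6 of 6 measured genes. That list also held more calls with no filter, 10 against 7. In the list of sterol and fatty acid synthesis, 24 of 29 genes were measured, and 7 were lower and 0 higher by the calls of the authors' deposited table, beside 0.794% and 0.359% of all measured genes. By value 22 were lower and 2 higher, with a median log2 ratio of -0.91 against 0.02 over all measured genes. All 24 passed the 1 FPKM filter in both libraries. The summed level of the list was 778 FPKM in the proliferating and 351 FPKM in the maturing control.

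The called genes run along the mevalonate and sterol pathway. Mvd, which makes the isoprenoid unit, fell from 13.1 to 4.47 FPKM in the authors' deposited table. Idi1, which isomerises that unit, fell from 99.2 to 38.7 FPKM (log2 ratio in the authors' deposited table -1.36, standard error of their model 0.38, q = 0.00714). Lss, the cyclase that forms lanosterol, fell from 18.8 to 5.72 FPKM there. Lss overlaps 4930483K19Rik, at 1.21 and 0.264 FPKM, so their fragments may be shared. Cyp51, the lanosterol demethylase, fell from 27.9 to 9.51 FPKM in the authors' deposited table. Sc4mol, the next oxidase of the pathway, fell from 69.9 to 23.1 FPKM there. The other steps were lower by value without a call. Mvk was at 7.98 and 3.79 FPKM, Fdps at 85.0 and 39.7 FPKM (q = 0.0947 in the authors' deposited table) and Fdft1, the squalene synthase, at 17.8 and 7.24 FPKM. Squalene epoxidase (Sqle) was at 47.6 and 22.8 FPKM, Nsdhl at 22.7 and 10.4 FPKM and Dhcr7 at 15.4 and 7.72 FPKM. Hmgcs1 was listed at 0 in both libraries, at a locus of an unplaced chromosome 13 sequence, so it gives no value here.

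The list also holds genes of fatty acid synthesis. Scd2, a stearoyl-CoA desaturase that puts a double bond into saturated fatty acids, fell from 126 to 36.7 FPKM, with a log2 ratio of -1.78, a standard error of 0.37 and q = 6.63e-05 in the authors' deposited table. Its relatives Scd3 (30.7 and 12.2 FPKM) and Scd4 (26.5 and 10.2 FPKM) were also called lower there, while Scd1 was at 48.4 and 29.96 FPKM without a call. These copies are alike in sequence, so their separate levels are uncertain. The elongase Elovl6 fell from 4.61 to 1.29 FPKM and the acetoacetyl-CoA synthetase Aacs from 14.5 to 5.18 FPKM in the authors' deposited table; both, like Scd3 and Scd4, are outside the list and were chosen after their values were seen. Fatty acid synthase (Fasn) was at 14.3 and 8.59 FPKM, and acetyl-CoA carboxylase (Acaca) at 3.91 and 2.59 FPKM. The regulators of the pathway had ratios closer to 0 than the called enzymes. Srebf2, the transcription factor that turns on sterol synthesis, was at 24.5 and 16.8 FPKM, its relative Srebf1 at 18.7 and 13.6 FPKM, and Insig1, which retains their processing complex, at 7.34 FPKM in both libraries. None of these 3 was called. Of the 24 genes, Insig2 had the highest ratio, at 2.32 and 2.47 FPKM.

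**Figure D2:**
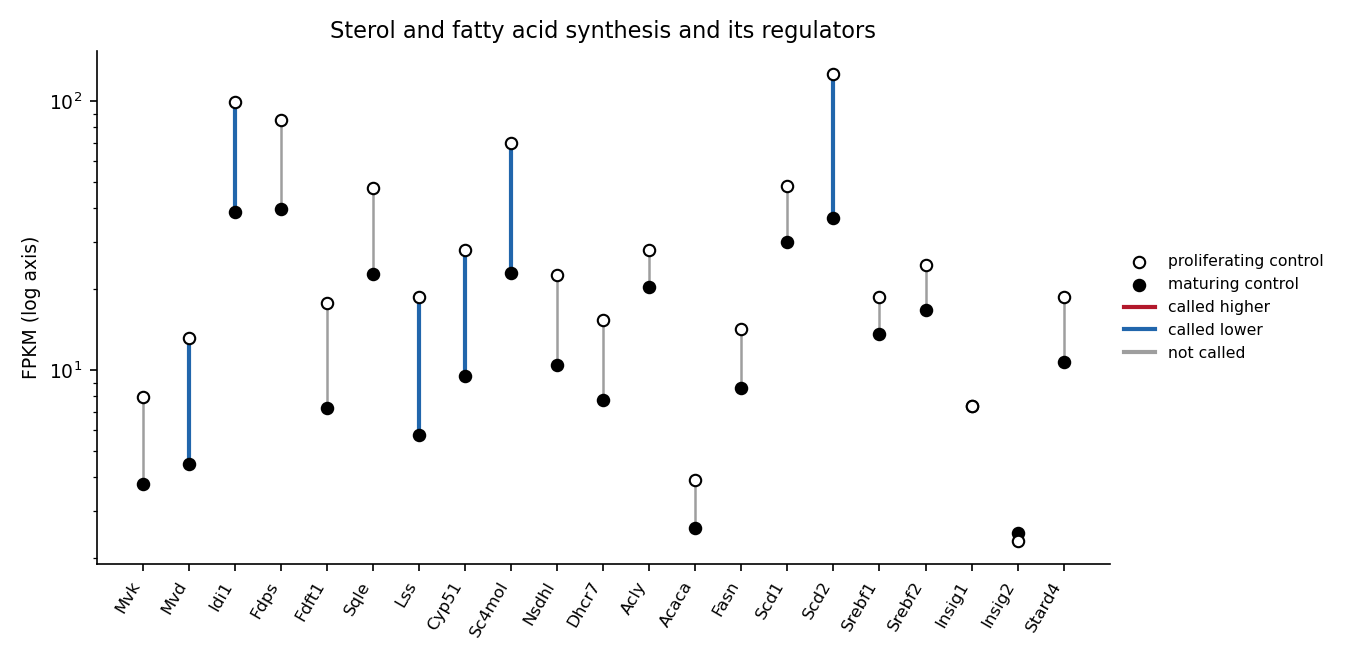
FPKM on a log axis for 21 measured genes of sterol and fatty acid synthesis, with an open circle for the proliferating and a filled circle for the maturing control. Blue lines join the 6 of these called lower by the authors' deposited table and grey lines those not called. The filled circle lies under the open one for 19 of the 21 genes, and Insig1 and Insig2 are the exceptions.

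At 5 FPKM or above in a library, 13 genes were called higher and 50 lower, and all 13 are named here. Rgs12, which speeds the shut-off of G proteins, rose from 1.58 to 6.95 FPKM in the authors' deposited table. Mt2, a metallothionein that binds zinc, rose from 216 to 644 FPKM, with a log2 ratio of 1.57, a standard error of 0.39 and q = 0.00148 there. Its neighbour Mt1 was at 300 and 573 FPKM and was not called. Cited4, a partner of the coactivators CBP and p300, rose from 26.2 to 71.5 FPKM in the authors' deposited table. Atp1b2, a beta subunit of the sodium pump, rose from 29.0 to 72.2 FPKM there, and Plin2, a coat protein of lipid droplets, from 61.7 to 142 FPKM. Hemgn, a nuclear protein of erythroid cells, rose from 6.11 to 15.98 FPKM in the authors' deposited table. Selenbp1 was at 36.8 and 84.0 FPKM and its near-identical copy Selenbp2 at 35.8 and 81.6 FPKM, both called higher, and fragments of one may count for the other. Slc16a6, of the monocarboxylate transporter family, was at 5.28 and 12.9 FPKM and called at q = 0.0446 in the authors' deposited table. It overlaps Arsg, at 0.235 and 0.905 FPKM. The other 4 genes belong to red cell or cytokine lists and are given with them.

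The genes of the lowest ratios included signalling proteins and genes of other blood lineages. Rasd1, a small Ras-like protein named for its induction by dexamethasone, fell from 18.5 to 2.05 FPKM in the authors' deposited table, with a large standard error of 0.86. Its locus overlaps Med9, at 4.85 and 3.72 FPKM. Hhex, a homeobox factor of early blood progenitors, fell from 5.14 to 0.294 FPKM, with a log2 ratio of -4.13, a standard error of 0.54 and q = 3.15e-12 there. Parm1 fell from 11.6 to 1.48 FPKM, Fam198b from 9.74 to 1.47 FPKM and the Kelch-family gene Klhl6 from 7.58 to 0.798 FPKM in the authors' deposited table. Plek, a substrate of protein kinase C known from platelets, fell from 33.4 to 8.25 FPKM, and the adapter protein Samsn1 from 28.0 to 7.64 FPKM there. The nucleoside carrier Slc28a2 fell from 8.17 to 1.85 FPKM in the authors' deposited table. It has a similar copy, Gm14085, so fragments may be shared. The gene rule passed over 3 predicted or unnamed entries.

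Promoter sequence was examined for the letters AGATAA, the core that Gata1 and Gata2 bind, because these factors exchange places on many genes during erythroid maturation. In the 250 bases before each RefSeq start, searched on both strands, AGATAA was present in 4 of 26 promoters of measured genes called higher (15.4%) and in 14 of 71 of those called lower (19.7%). The share was 5.87% over 9220 promoters of measured genes and 9.99% over all 32851 promoters in the table. Promoters were found for 25 of the 33 genes called higher and 55 of the 73 called lower, and 1 gene can have several. Of the genes named from the top and bottom of the ratios, 9 called higher and 13 called lower had a promoter in the table, and 1 and 4 of these held the letters. The promoters are shown because they carry the letters next to a called change: Rhd rose, and Klhl6, the interleukin 33 receptor gene Il1rl1, Gp5 and Slc28a2 fell in the authors' deposited table. They are RefSeq sequence on GRCm38.p6, 5′ to 3′ on the strand of the gene, with AGATAA or its reverse complement TTATCT in capitals.
Rhd (chr4:134864286-134864535, plus strand): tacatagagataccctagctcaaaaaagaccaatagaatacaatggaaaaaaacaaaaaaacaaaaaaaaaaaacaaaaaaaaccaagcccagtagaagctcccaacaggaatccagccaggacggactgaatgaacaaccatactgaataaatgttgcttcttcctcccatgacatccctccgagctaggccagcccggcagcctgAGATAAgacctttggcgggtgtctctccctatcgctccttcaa
Klhl6 (chr16:19983050-19983299, minus strand): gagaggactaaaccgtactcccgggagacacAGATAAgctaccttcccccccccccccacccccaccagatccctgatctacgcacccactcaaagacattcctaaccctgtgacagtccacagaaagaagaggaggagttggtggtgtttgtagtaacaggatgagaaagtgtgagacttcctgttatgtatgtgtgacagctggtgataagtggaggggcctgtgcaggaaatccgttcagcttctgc
Il1rl1 (chr1:40429320-40429569, plus strand): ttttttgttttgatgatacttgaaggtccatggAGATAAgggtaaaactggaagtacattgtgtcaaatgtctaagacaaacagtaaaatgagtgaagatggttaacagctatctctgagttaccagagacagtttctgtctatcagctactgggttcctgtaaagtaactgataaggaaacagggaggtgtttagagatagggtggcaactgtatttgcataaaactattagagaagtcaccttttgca
Il1rl1 (chr1:40439379-40439628, plus strand): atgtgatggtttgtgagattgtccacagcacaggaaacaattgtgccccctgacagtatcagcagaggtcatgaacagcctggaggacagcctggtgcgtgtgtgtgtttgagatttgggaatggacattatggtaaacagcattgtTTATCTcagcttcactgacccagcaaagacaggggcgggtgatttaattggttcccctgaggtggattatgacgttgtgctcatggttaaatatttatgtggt
Gp5 (chr16:30310782-30311031, minus strand): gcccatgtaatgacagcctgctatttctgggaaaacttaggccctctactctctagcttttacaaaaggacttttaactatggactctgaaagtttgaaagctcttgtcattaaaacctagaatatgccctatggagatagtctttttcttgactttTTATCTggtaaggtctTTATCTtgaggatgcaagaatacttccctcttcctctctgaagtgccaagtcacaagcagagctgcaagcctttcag
Slc28a2 (chr2:122426185-122426434, plus strand): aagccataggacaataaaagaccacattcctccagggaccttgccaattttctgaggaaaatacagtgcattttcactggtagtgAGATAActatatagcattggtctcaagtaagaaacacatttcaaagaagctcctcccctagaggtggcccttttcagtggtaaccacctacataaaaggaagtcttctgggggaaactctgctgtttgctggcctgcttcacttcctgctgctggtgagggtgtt
In Rhd the match lies near the start, and in Klhl6 at the far end of the window. Il1rl1 has 2 annotated starts, each with 1 match on opposite strands. Gp5 has 2 matches, both on the other strand. A match shows only that the letters occur. The STAT core TTCNNNGAA occurred in 0 of 26 promoters of genes called higher, 5.63% of those called lower and 5.67% of those of measured genes, and the window of Cish did not hold it. CCACACCC, the box that Klf1 binds, occurred in 2 of 26 (7.69%), 1 of 71 (1.41%) and 3.38% of these groups in the same order. TGACGTCA, the cyclic AMP response element, occurred in 1 of 26 (3.85%), 0 of 71 (0.0%) and 2.86%. These counts among called genes are too small to compare. The sterol response letters CACCNCAC, chosen after the sterol values were seen, occurred in 0 of 21 promoters of the sterol list. They occurred in 5.24% of promoters of measured genes and in 5.37% of all promoters. Promoters were found for 15 of the 24 measured sterol genes, too few to set the list apart from these shares.

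Feedback inhibitors of growth factor signalling were low in the maturing control. The authors' deposited table called all 6 measured members of the list of growth factor and MAPK response lower, beside 0.794% of all measured genes, with a median log2 ratio of -1.86. Over all 19 listed genes with no filter the median was -0.20. Of these, 3 passed the 1 FPKM filter only through the proliferating control, so the filter favours that direction, and 13 of the 19 listed genes were not measured. Dusp6, a phosphatase that switches off ERK, went from 6.23 to 1.02 FPKM in the authors' deposited table, and Ier3 from 6.69 to 1.87 FPKM. Spred1 (7.48 and 1.09 FPKM) and Spred2 (6.13 and 0.931 FPKM) block Ras signalling to ERK. The ERK-driven transcription factor Etv5 was at 1.37 and 0.0637 FPKM, and the immediate early factor Egr1 at 3.12 and 0.0382 FPKM. Another 4 members below 1 FPKM in both libraries, Spry4, Etv4, Egr2 and Egr3, were called lower there as well. Over all 19 genes 10 were called lower and 9 were not called, and 13 were lower and 6 higher by value. Among the low inhibitors without a call, Spry1 was at 0.728 and 0.652 FPKM, Dusp4 at 0.131 and 0.327 FPKM and Spred3 at 0.141 and 0.168 FPKM.

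A separate list of other immediate early genes and Myc had 12 measured members, and the authors' deposited table called 0 of them, at a median of -0.17. Over all its members with no filter the median was 0.0040. Junb was at 9.71 and 14.9 FPKM, higher by value, while Klf6 was at 3.66 and 1.35 FPKM. Myc, which drives growth and must decline for erythroid maturation, was at 45.5 and 28.6 FPKM, and its antagonist Mxd1 at 15.8 and 8.04 FPKM. The authors' deposited table called Fos lower, but at only 0.306 and 0.00787 FPKM.

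Receptors of the cytokines that support erythroblasts had unlike values. Of 12 measured receptor genes the authors' deposited table called 0, and 9 were lower by value, at a median of -0.52. Kit, which binds stem cell factor, was at 58.0 and 25.5 FPKM, and the authors' deposited table lists its test as failed. The shared beta chain genes Csf2rb (114 and 62.1 FPKM) and Csf2rb2 (117 and 63.4 FPKM) are near-copies with nearly equal values. The activin receptor Acvr1b was at 3.91 and 1.53 FPKM and Igf1r at 3.02 and 1.92 FPKM. Epor, the erythropoietin receptor, was higher by value at 17.6 and 25.6 FPKM, as was the transferrin receptor Tfrc at 34.0 and 44.3 FPKM.

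Targets of erythropoietin and STAT5 were divided. Cish, an inhibitor that STAT5 induces, rose from 4.80 to 14.8 FPKM, with a log2 ratio of 1.63, a standard error of 0.48 and q = 0.0121 in the authors' deposited table. Fam132b, the erythroferrone gene, rose from 0.627 to 4.11 FPKM there. These were the 2 called of 13 measured members, beside 0.359% of all measured genes called higher. Fam132b was measured only through the maturing control, where it is high. Over all 17 listed genes 3 were called higher, with 1 of these below 1 FPKM in both libraries. Socs3 was also called higher (log2 ratio 2.68, standard error 0.68, q = 0.00182 in the authors' deposited table). Podxl, at 20.1 and 39.9 FPKM, Pim1, at 28.4 and 41.9 FPKM, and Socs2, at 5.33 and 7.63 FPKM, were higher by value. Id1, at 11.6 and 7.81 FPKM, and Trib3, at 2.53 and 0.984 FPKM, were lower by value. The list's median was -0.02 and its mean 0.24.

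Genes that glucocorticoids induce moved in both directions. The authors' deposited table called 4 of 12 measured members lower and 2 higher, beside 0.794% and 0.359% of all measured genes. The median was -0.50, with -0.93 at 5 FPKM or more, -0.17 for the mean and -0.06 with no filter. Fkbp5, a chaperone of steroid receptors, fell from 17.2 to 6.90 FPKM (log2 ratio -1.32, standard error 0.42, q = 0.0286 in the authors' deposited table). Ddit4, an inhibitor of mTOR signalling, fell from 17.3 to 6.36 FPKM, and Zfp36l2, an RNA-binding protein that destabilises messages, from 128 to 52.4 FPKM there. The clock gene Per2 fell from 1.46 to 0.475 FPKM in the authors' deposited table, and it passed the filter only through the proliferating control. Per1 was at 4.56 and 1.88 FPKM without a call. Tsc22d3, which encodes the leucine zipper protein GILZ, was at 10.8 and 5.15 FPKM and was not called. The phosphatase Dusp1 rose from 1.19 to 3.84 FPKM in the authors' deposited table, as did Mt2 above. Txnip was higher by value, at 18.8 and 35.0 FPKM. Metallothionein genes are induced by zinc as well as by glucocorticoids.

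Genes linked to FoxO factors and growth factor withdrawal had 0 calls among 19 measured members in the authors' deposited table. Their median was 0.08, but -0.15 at 5 FPKM or more and -0.13 for the mean, so it has no stable sign. Foxo3 was at 6.18 and 5.97 FPKM, the mitophagy kinase Pink1 at 2.81 and 4.82 FPKM, Sesn1 at 2.34 and 3.20 FPKM and Cited2 at 5.16 and 2.25 FPKM.

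Progenitor genes were mostly lower by value. Of 17 measured progenitor factors and markers, 13 were lower and 4 higher by value, where 53.3% of all measured genes were higher. The median was -0.55, and -0.11 over all listed genes with no filter. The authors' deposited table called 3 lower, beside 0.794% of all measured genes. Beside Hhex these were Vim, the intermediate filament gene, from 17.8 to 4.24 FPKM, and Myb, a factor that keeps progenitors dividing, from 42.2 to 18.9 FPKM. Hhex and 2 other genes of the list passed the filter only through the proliferating control. Gata2 was at 54.9 and 29.6 FPKM, Id2 at 5.37 and 2.41 FPKM, Cd44 at 14.7 and 7.97 FPKM and Lyl1 at 40.2 and 29.5 FPKM, without a call. Runx1, at 4.77 and 5.92 FPKM, Gfi1, at 6.27 and 8.86 FPKM, and Sfpi1, which encodes PU.1, at 21.5 and 27.9 FPKM, were higher by value.

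Erythroid transcription factors had smaller differences. None of 24 measured members was called in the authors' deposited table; 14 were higher and 10 lower by value, at a median of 0.09. The Gata1 cofactor Zfpm1 had the largest positive ratio, at 22.7 and 38.6 FPKM. Gfi1b, a repressor that Gata1 works with, was at 80.7 and 107 FPKM. Nfe2, at 39.6 and 25.9 FPKM, and Lmo2, which bridges Tal1 and Gata1, at 36.2 and 24.5 FPKM, were lower by value.

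Haem synthesis was higher by value at the middle steps of the pathway, with nearly equal values at its entry. Of 18 measured genes 14 were higher by value, at a median of 0.38, but the authors' deposited table called 0 of them. The first enzyme has a general form, Alas1, at 2.35 and 2.49 FPKM, and an erythroid form, Alas2, at 4.55 and 4.41 FPKM. Alad, the second enzyme, was at 38.03 and 83.5 FPKM (log2 ratio 1.14, standard error 0.40, q = 0.0648 in the authors' deposited table). Uros was at 4.18 and 9.21 FPKM and Urod at 26.9 and 35.6 FPKM. The mitochondrial steps Cpox, at 64.7 and 96.5 FPKM, Ppox, at 13.4 and 17.0 FPKM, and ferrochelatase (Fech), at 36.7 and 48.7 FPKM, were higher by value too. Abcb10, a mitochondrial transporter needed for haem synthesis, was at 11.9 and 25.8 FPKM (q = 0.0721 in the authors' deposited table). The glycine carrier Slc25a38 was at 14.6 and 20.8 FPKM.

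Iron genes were mostly higher by value, 14 of 16 measured, beside 53.3% of all measured genes, at a median of 0.34. The authors' deposited table called 1 iron gene, beside 0.359% of all measured genes called higher. Slc25a37, mitoferrin, which brings iron into mitochondria, was the only one called, from 3.54 to 10.2 FPKM (log2 ratio 1.52, standard error 0.46, q = 0.0154 in the authors' deposited table). Its relative Slc25a28 was at 5.69 and 5.87 FPKM. The ferrireductase Steap3 was at 18.4 and 37.7 FPKM and the iron exporter Slc40a1 at 9.66 and 14.2 FPKM. The ferritin genes Ftl1, at 1619 and 2930 FPKM, and Fth1, at 530 and 746 FPKM, together took 1.22% of the summed FPKM in the proliferating and 2.07% in the maturing control. Ireb2, which encodes an iron sensor that blocks ferritin translation, was at 7.42 and 7.39 FPKM, and its partner Aco1 at 14.3 and 10.8 FPKM.

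Globin entries were all higher by value, 9 of 9, and the authors' deposited table called 0 of them. The joint alpha-globin entry, Hba-a1 with Hba-a2, stood at 843 and 1747 FPKM (log2 ratio 1.05, standard error 0.42, q = 0.133 in the authors' deposited table), and the joint beta-globin entry, Hbb-b1 with Hbb-b2, at 798 and 963 FPKM. The level of the alpha entry was close to that of the beta entry in the proliferating control and above it after 6 h. The embryonic genes Hbb-bh1, at 12.5 and 13.3 FPKM, and Hbb-y, at 1.22 and 1.48 FPKM, were low in both libraries. Globin entries held 1.07% of the summed FPKM in the proliferating and 1.75% in the maturing control. The copies share fragments and enter the list more than once, so the 9 entries are not independent.

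**Figure D3:**
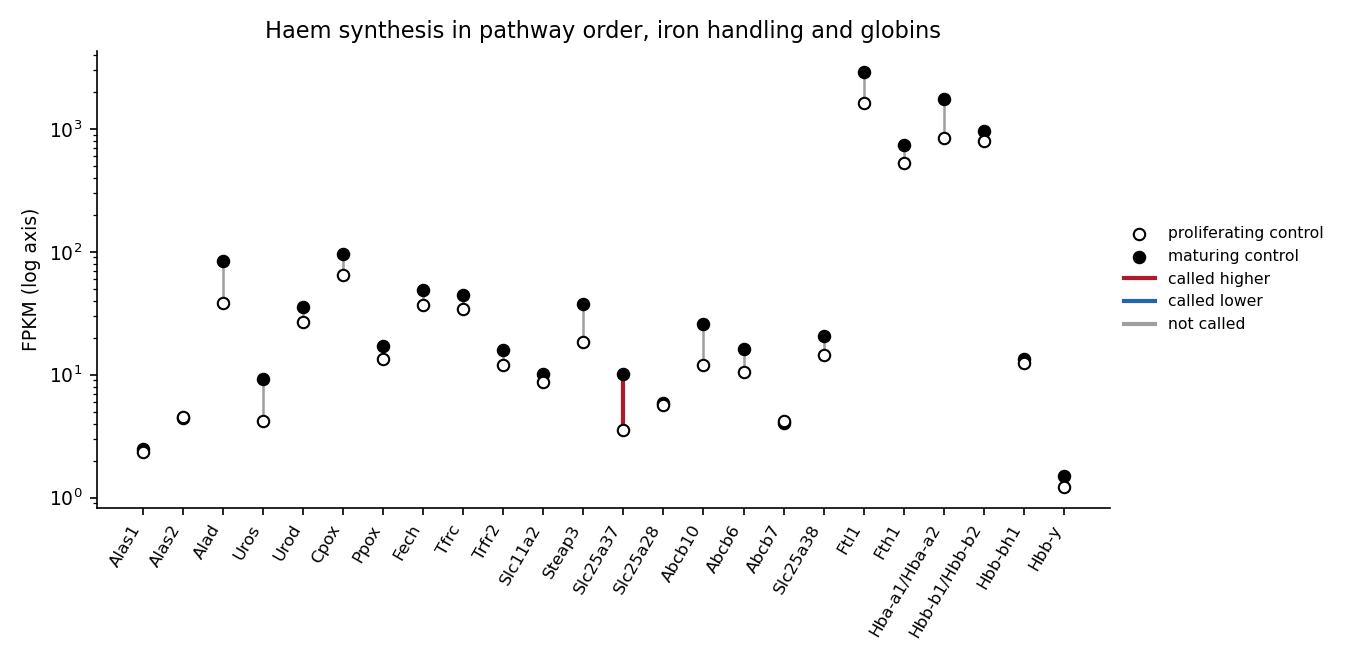
FPKM on a log axis for genes of haem synthesis in pathway order, then iron handling and globins, with an open circle for the proliferating and a filled circle for the maturing control. Slc25a37, from 3.54 to 10.2 FPKM, is the only gene with a red line, which marks a call in the authors' deposited table. Alas1 and Alas2 show overlapping circles, while Alad, Uros and the alpha-globin entry show wide gaps.

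Red cell membrane and surface genes held 4 calls, all higher, beside 0.359% of all measured genes called higher. Epb4.9, which encodes the actin-bundling protein dematin, rose from 3.07 to 10.3 FPKM in the authors' deposited table and was the only call among 15 measured skeleton genes. Stomatin (Stom) was at 9.38 and 21.5 FPKM (q = 0.0666 there), alpha-adducin (Add1) at 8.37 and 15.1 FPKM, beta-spectrin (Spnb1) at 11.7 and 18.3 FPKM and ankyrin (Ank1) at 11.1 and 16.7 FPKM. Actin and tropomyosin genes were lower by value, with Actb at 337 and 267 FPKM and Tpm3 at 62.6 and 45.8 FPKM. Of 21 measured surface genes, the authors' deposited table called 3 higher. Rhd, the Rhesus blood group protein, rose from 14.4 to 41.9 FPKM (log2 ratio 1.54, standard error 0.44, q = 0.00752 in the authors' deposited table). Aqp1, a water channel, went from 0.192 to 1.73 FPKM and the anion exchanger Slc4a1 from 0.792 to 2.34 FPKM there, though both passed the filter only through the maturing control. The partner of Rhd, Rhag, was lower by value at 77.9 and 56.2 FPKM and was not called. Art4, which carries the Dombrock blood group, was at 5.21 and 10.4 FPKM and Ermap at 31.1 and 46.0 FPKM.

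Genes of autophagy and late maturation had 1 call among 24 measured members, beside 0.359% of all measured genes called higher. Trim10, a ubiquitin ligase of erythroid cells, rose from 0.510 to 1.91 FPKM in the authors' deposited table, and it was measured only through the maturing control. By value 20 members were higher, at a median of 0.27. Ube2l6 was at 2.33 and 5.55 FPKM, Wipi1, which binds early autophagosomes, at 1.26 and 3.05 FPKM, and Tspan33 at 32.4 and 48.1 FPKM. Bnip3l, the receptor that clears mitochondria from reticulocytes, was at 28.9 and 32.3 FPKM.

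Genes of DNA replication and mitosis were slightly but widely higher by value, while ribosome biogenesis was lower. Of 33 measured replication genes 30 were higher by value, at a median of 0.32, and of 29 mitosis genes 27, at a median of 0.27, beside 53.3% of all measured genes. For ribosome biogenesis and RNA polymerase I, 26 of 28 were lower by value, at a median of -0.31. The authors' deposited table called 0 replication and 0 ribosome biogenesis genes. Cdc6, which loads the replicative helicase, had the highest ratio among replication genes, at 6.48 and 11.5 FPKM (log2 ratio 0.83, standard error 0.43, q = 0.408 in the authors' deposited table). The helicase genes Mcm4, at 20.5 and 29.0 FPKM, and Mcm5, at 26.5 and 36.3 FPKM, were higher by value, and the sliding clamp Pcna was at 123 and 132 FPKM. In mitosis the ubiquitin-conjugating enzyme Ube2c was at 37.6 and 58.4 FPKM, the kinase Aurka at 7.92 and 11.9 FPKM, and the proliferation marker Mki67 at 29.1 and 40.6 FPKM. The stress-linked kinase Plk3 went the other way, from 3.15 to 0.703 FPKM, and was the list's only call in the authors' deposited table. It was measured only through the proliferating control, where it is high, and 0.794% of all measured genes were called lower. Among ribosome biogenesis genes, Heatr1, which acts in ribosomal RNA transcription, was at 9.88 and 5.89 FPKM (log2 ratio -0.75, standard error 0.41, q = 0.479 there), nucleophosmin (Npm1) at 185 and 133 FPKM and nucleolin (Ncl) at 52.4 and 37.9 FPKM. Ubtf, at 17.1 and 18.6 FPKM, and Pes1, at 19.1 and 21.9 FPKM, were the exceptions. Rn45s, the precursor that this machinery makes, was higher by value, as given above.

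**Figure D4:**
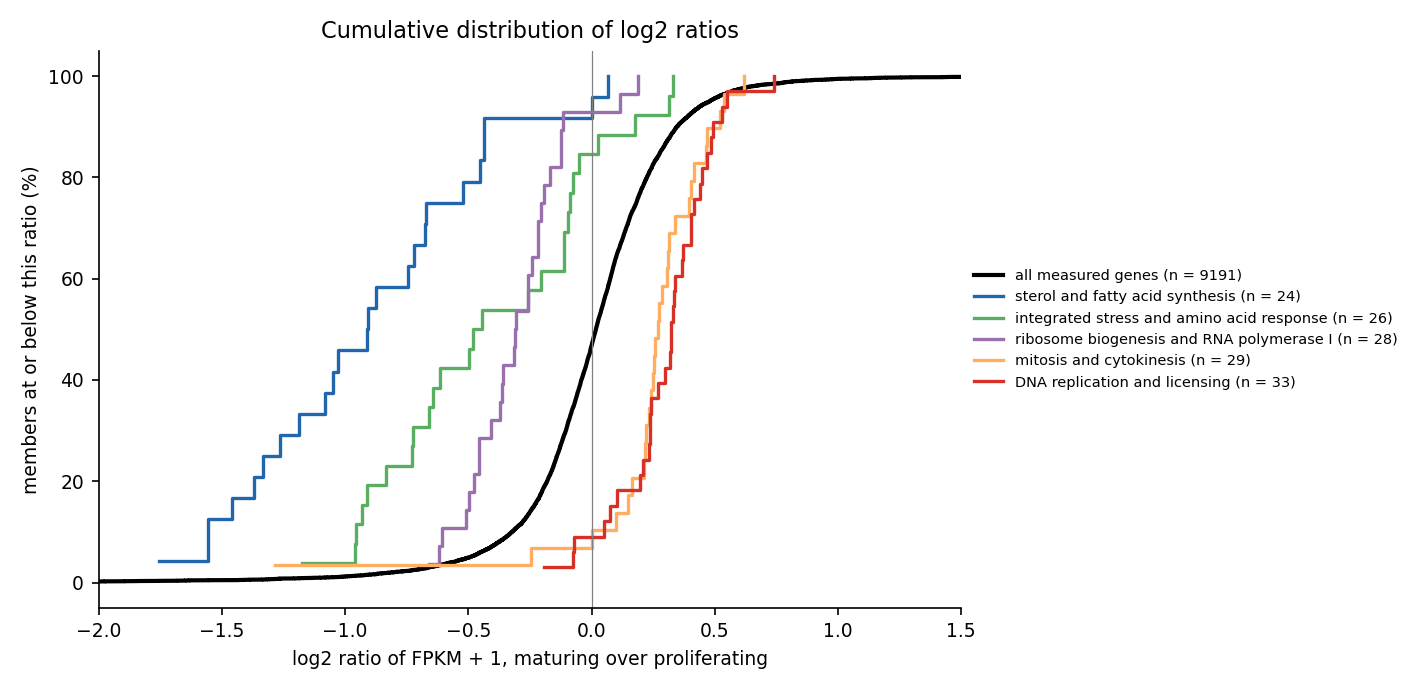
Cumulative share of members (%, vertical axis) at or below each log2 ratio of FPKM + 1 (horizontal axis, maturing over proliferating control) for all 9191 measured genes and 5 gene lists. The sterol list lies farthest left (median -0.91), ribosome biogenesis less so (-0.31), and mitosis (0.27) and replication (0.32) to the right of all genes (0.02).

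Cyclins and their partners had values on both sides of 0. Of 23 measured members 14 were higher by value, at a median of 0.09, and the authors' deposited table called 0. Ccnd3, the D cyclin of late erythroblasts, was at 37.4 and 55.3 FPKM, while Ccnd2 was at 8.75 and 5.66 FPKM. The phosphatase Cdc25b was at 1.46 and 3.61 FPKM and cyclin E (Ccne1) at 7.74 and 11.5 FPKM. Among inhibitors, Cdkn2c was at 4.61 and 7.13 FPKM, Cdkn1b at 4.80 and 5.79 FPKM and Cdkn2d at 7.24 and 3.35 FPKM. Cdk4 was level at 88.2 and 88.7 FPKM.

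Genes that bring in or make amino acids were lower by value. By value 53.3% of all measured genes were higher. Of 26 measured genes of the integrated stress and amino acid response 22 were lower, at a median of -0.46. Chac1, which degrades glutathione, was the only one called in the authors' deposited table, from 2.07 to 0.362 FPKM. It passed the filter only through the proliferating control, and 0.794% of all measured genes were called lower. Atf4, the transcription factor of this response, was at 64.6 and 41.0 FPKM. The serine synthesis enzymes Phgdh (11.01 and 5.39 FPKM), Psat1 (54.2 and 27.9 FPKM) and Psph (13.1 and 6.25 FPKM) were lower by value, and asparagine synthetase (Asns) was at 101 and 97.1 FPKM. Of 15 measured amino acid and nucleoside transporters 12 were lower by value. The authors' deposited table called 2 of these transporters lower, beside 0.794% of all measured genes. They were Slc28a2 and Slc7a8, the latter from 1.53 to 0.0568 FPKM and measured only through the proliferating control. Slc7a5, the large neutral amino acid carrier, was at 55.4 and 28.1 FPKM and its partner Slc3a2 at 28.8 and 18.4 FPKM, without a call. The glycine carrier Slc6a9 was higher by value, at 3.44 and 5.49 FPKM.

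Glycolysis had 0 calls among 25 measured genes in the authors' deposited table, with 17 lower by value and a median of -0.18. The glucose carrier Slc2a3 was at 14.0 and 6.55 FPKM, Hk1 at 67.4 and 49.4 FPKM, Pgam1 at 119 and 69.8 FPKM and Ldha at 155 and 98.4 FPKM. Pklr, the red cell and liver pyruvate kinase, was at 12.8 and 18.3 FPKM, and Pkm2 was at 110 and 72.4 FPKM. Bpgm, which makes the ligand that loosens oxygen from haemoglobin, was at 4.42 and 6.91 FPKM.

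Stress and survival lists held few calls. Of 19 measured p53 targets 16 were lower by value, at a median of -0.23. Plk3, with the limit given above, was the 1 call, beside 0.794% of all measured genes called lower. The Bcl2 family (12 measured, median 0.07), heat shock chaperones (15, -0.21), antioxidant enzymes (20, 0.12), chromatin enzymes (24, 0.11) and interferon-stimulated genes (6, 0.15) had 0 calls among measured members in the authors' deposited table. Among antioxidants, Nqo1 was at 12.2 and 22.1 FPKM and Mgst3 at 10.4 and 20.8 FPKM, while Gsta4 was at 40.6 and 25.1 FPKM. The survival gene Bcl2l1, needed by maturing erythroblasts, was at 7.72 and 6.87 FPKM. Chromatin enzymes lay in a narrow band from -0.14 to 0.61, with Kdm1a lowest, at 7.47 and 6.68 FPKM, and the Setd8 relative Suv420h2 highest, at 9.60 and 15.1 FPKM.

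**Figure D5:**
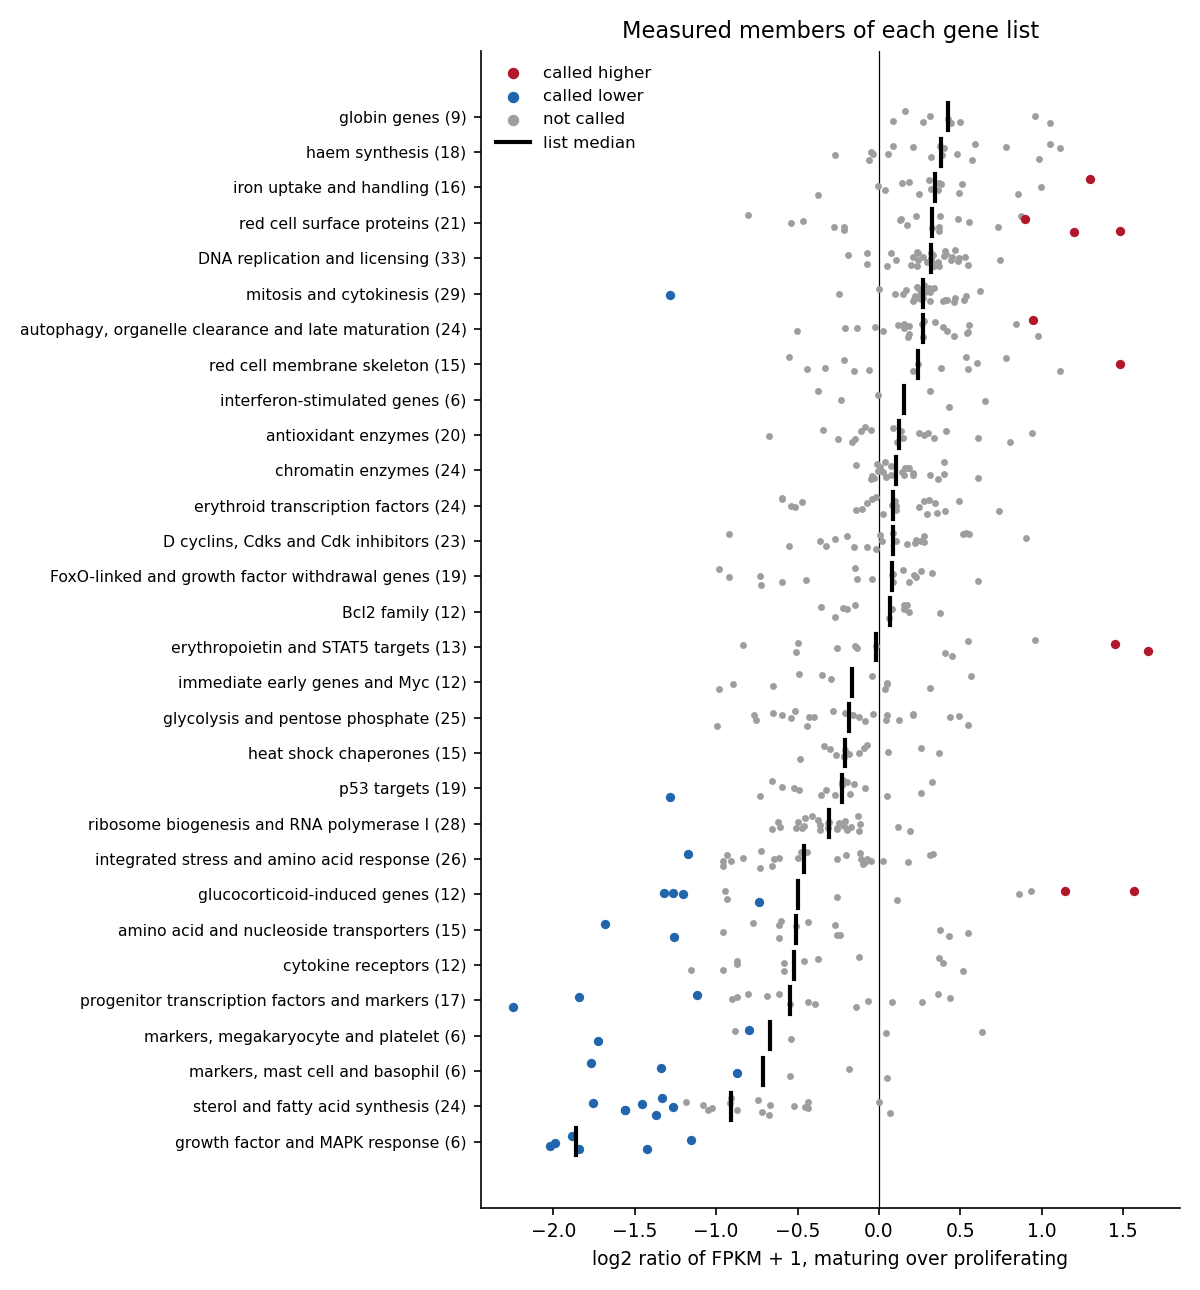
Log2 ratio of FPKM + 1, maturing over proliferating control, for measured members of 30 gene lists, 1 list a row with the number measured in brackets. Black bars are list medians, red points are genes that the authors' deposited table called higher, and blue points those it called lower. Globins, haem and iron genes lie at the top with medians from 0.34 to 0.42, and sterol synthesis and the growth factor response at the bottom with -0.91 and -1.86.

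Markers of neighbouring blood lineages held further calls. Of the 14 mast cell and basophil markers 6 were measured, and the authors' deposited table called 3 of these lower, beside 0.794% of all measured genes. They were Il1rl1, from 16.7 to 4.19 FPKM, Ms4a2, a chain of the IgE receptor, from 7.65 to 2.42 FPKM, and Cpa3, from 1.499 to 0.365 FPKM, which passed the filter only through the proliferating control. The summed level of the 14 was 72.6 and 39.4 FPKM, and no marker was at 0 in both libraries. Hdc, at 42.5 and 28.7 FPKM, made up most of that sum. By value 5 of the 6 measured markers were lower and 1 higher. Over all 14, 4 were called lower, and 7 were lower and 7 higher by value. With no filter the median was -0.05. Mcpt1, Mcpt4, Fcer1a, Cma1 and Mitf were higher by value without a call. Of 16 megakaryocyte and platelet markers 6 were measured, with sums of 40.6 and 19.4 FPKM. The authors' deposited table called 2 of these lower, beside 0.794% of all measured genes. They were the platelet glycoprotein gene Gp5, from 19.5 to 5.20 FPKM, and Rab27b, from 1.75 to 0.578 FPKM. Rab27b too was measured only through the proliferating control. Over all 16 markers 6 were lower and 5 higher by value, with a median of 0.0. Gp9 was among the higher and was not called (log2 ratio 1.31, standard error 0.54 in the authors' deposited table). Ppbp, Gp6, Selp, Thbs1 and Treml1 were at 0 in both libraries, while Tubb1 was at 4.72 and 4.89 FPKM. The granulocyte and monocyte markers summed to 4.88 and 5.12 FPKM, with Elane, Ctsg, Lyz2 and 5 others at 0 in both. No lymphocyte marker and no fibroblast, endothelial or hepatocyte marker reached 1 FPKM. The part that other cells had in the results on progenitor genes was not tested.

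The knockdown comparison of the same table shares the proliferating control library, so its ratios are not independent of those above. Values are given side by side and no likeness is drawn from them. In proliferating cells with the Setd8 hairpin, 1 of 33 replication genes was higher by value, at a median of -0.41, and the globin entries had a median of -1.51. The share over all measured genes was not computed for that comparison, so 1 of 33 is not set apart from it. By value, 2 of 28 ribosome biogenesis genes, 2 of 15 heat shock chaperones and 3 of 20 antioxidant enzymes were higher there. Glycolysis, at 14 of 25, and chromatin enzymes, at 13 of 24, were more evenly divided. The growth factor list had a median of 0.50 and the progenitor list one of 0.42 there. The replication, globin, growth factor and progenitor medians had the opposite sign over maturation, but some other lists had the same sign in both comparisons. The integrated stress list was at -0.53 in the knockdown and -0.46 over maturation, and ribosome biogenesis at -0.32 and -0.31. Of the genes named from the top and bottom of the maturation ratios, Vim was at 163 FPKM, Il1rl1 at 50.5 FPKM and Fam198b at 36.5 FPKM in the knockdown library and called higher in the authors' deposited table. Hemgn, at 0.251 FPKM, and Slc28a2, at 0.0301 FPKM, were called lower there. Rasd1, at 44.4 FPKM, Klhl6, at 13.6 FPKM, and Samsn1, at 31.3 FPKM, were not called. The sterol list had a median of -0.38, and Insig1, level over maturation, was at 47.9 FPKM in the knockdown and called higher in the authors' deposited table.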

How the data were processed

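RNA sequencing covered 1 library in each of the 4 groups that the labels give, and 2 libraries were used for the comparison. Per the submitters' processing notes, FastQC 0.10.1, Cufflinks 2.0.2, Cuffdiff and the mm9 genome were used. The aligner and its settings, and the annotation, were not given in the sources used here. Per the file headers, the authors' deposited table gives for each gene a locus, 2 library names with their values, the log2 ratio and statistic, the p-value and q-value, and a mark. The deposited values were read as FPKM, the unit that Cuffdiff writes. The authors' mark equals a q-value of 0.05 or less, and the deposited p-value matched a normal approximation to the statistic within 2.59e-06. Dividing the deposited log2 ratio by its statistic gave the authors' model standard error, which rests on no replicate of this pair. The authors tested 11298 entries. Another 11704 were not tested, 153 had too little data and 79 failed, and 90 entries name several genes. Absolute depth is unknown. For the relative depth, ratios of 2078 genes detected but below 0.03 FPKM in both libraries were binned. The depth is the median of the commonest bin, which held 255 of these genes. Sizes are log2 ratios of FPKM + 1, which understate the change of low genes. No test was run, because each group had 1 library.

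The members and lists were chosen with earlier results of these data known. The 33 lists hold 674 distinct genes, of which 5 had no row, and 491 rows were measured. The gene rule names Setd8, then up to 15 called genes in each direction at 5 FPKM or more in a library by ratio, then list members, called ones first. Some genes on the lists are counted but not reported here by name. Alternatives were a q-value of 0.01, a minimum of 1 or 5 FPKM or no minimum, a pseudocount of 0.1 or 5, list means, and 4 scalings (centred on abundant genes, upper quartile, TPM, and sums with globins left out). The size step was tested on simulated data. The knockdown library's name in the table was matched by its target and number, since its title begins like those of the controls. Promoters came from RefSeq on GRCm38.p6, matched by symbol, and no coordinate was carried over to mm9. Scripts ran in Python 3.11.15 with matplotlib 3.10.9, numpy 2.4.6, pandas 2.3.3 and scipy 1.17.1.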

Additional observations from a re-analysis of the deposited data

How the results depend on the processing

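Counts depended on the threshold and on low genes. The 66 genes called higher became 26 at a q-value of 0.01, 33 at 1 FPKM or more, 13 at 5 FPKM or more and 20 with a size of 1 or more. The 132 called lower became 80, 73, 50 and 62. The 50 genes with a ratio of 1 or more became 30 at 5 FPKM or more, 107 on the TPM scale, 112 with a pseudocount of 0.1 and 16 with one of 5. The 110 with a ratio of -1 or less became 187 on the TPM scale, 196 with a pseudocount of 0.1 and 35 with one of 5. TPM raises all values here, so a pseudocount of 1 weighs less. Of 328 list medians recomputed, 314 moved by less than 0.45 with no change of sign, though the Bcl2 family came to 0.0 with no filter. The growth factor and MAPK list moved to -2.56 on the TPM scale, -2.63 with a pseudocount of 0.1, -0.83 with one of 5 and -0.20 with no filter. Mast cell markers moved to -1.34 at 5 FPKM or more and -0.05 with no filter, and megakaryocyte markers to 0.0 with no filter. Signs reversed for the Bcl2 family with the mean (-0.00042), for FoxO-linked genes at 5 FPKM or more (-0.15) and with the mean (-0.13), for STAT5 targets at 5 FPKM or more (0.40), with the mean (0.24) and with no filter (0.0075), and for immediate early genes with no filter (0.0040). The cause was not tested. No scaling moved the median of all measured genes by 0.1. Settings that restrict the list to genes measured in both libraries, or by their mean, were added after the data were seen. No paired analysis was possible because each group had 1 library and the labels give no replicate numbers, and no library could be left out for the same reason.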
